A study of Homo sapiens with 24 samples.

Results

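The aminoacyl-tRNA synthetase genes were followed through 6 lists of RNA windows bound by SNRNP200, CAPRIN or G3BP1. Members were the genes of those lists whose symbol is a single letter followed by ARS1 or ARS2, together with EPRS1, FARSA, FARSB, AIMP1, AIMP2 and EEF1E1. This gave 39 genes of the 9792 with a window in any list: 20 cytosolic enzymes or subunits, 16 mitochondrial enzymes (symbols ending in ARS2) and 3 scaffold genes. Of 40 symbols in RefSeq that fit the rule, PARS2 had no window. The windows were at most 100 bases long, and a member counted as listed with at least 1 window.

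The cells were HEK293, an established human embryonic kidney line, and binding was mapped by eCLIP. In this assay RNA crosslinked to a protein is recovered by immunoprecipitation (IP), and its reads are compared with an input library. Each of the 6 experiments had 2 labelled replicates of input and of IP, so 24 libraries formed 12 groups. SNRNP200 was mapped in whole cells and in cytoplasm, in each case untreated or treated with 500 µM arsenic, and CAPRIN and G3BP1 were mapped in cells whose characteristics name no treatment. The labels do not give the time of exposure, the family member meant by CAPRIN, or whether replicates came from separate cultures. P-values therefore measure the spread between these libraries, which may be technical.

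Each aminoacyl-tRNA synthetase joins an amino acid to the tRNAs that carry its anticodons, and translation draws on the charged tRNAs. Separate nuclear genes mostly encode the cytosolic and the mitochondrial enzymes, while GARS1 and KARS1 serve both compartments. In the cytosol, 8 of the enzymes are held in a multi-synthetase complex by the scaffold proteins AIMP1, AIMP2 and EEF1E1, 11 members in all. SNRNP200 is a helicase of the spliceosome, which acts on introns in the nucleus. G3BP1 and CAPRIN1 are RNA-binding proteins of stress granules, and arsenic in the form of arsenite is a common way to induce these granules.

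In whole cells SNRNP200 windows covered nearly the whole family. Without arsenic 38 of 39 members were listed, against 92.4% of all 9792 genes, and with arsenic 37 of 39, against 83.8%. In the cytoplasmic fraction 9 of 39 members were listed without arsenic (18.6% of all genes) and 10 of 39 with it (25.2%). CAPRIN listed 33 of 39 members (44.6% of all genes) and G3BP1 listed 13 of 39 (12.6%). The shares of members in the whole cell and cytoplasmic lists were thus near those of all genes, and those in the CAPRIN and G3BP1 lists were above them, at 84.6% and 33.3%. The G3BP1 share rests on windows called in up to 3 replicates, although the labels give 2. In the set of up to 2 replicates 2 of 39 members were listed, against 8.05% of all genes, so the direction for G3BP1 did not hold there. These counts come from lists made over replicates and carry no replicate error.

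Cytosolic and mitochondrial members differed in how many were listed by CAPRIN and G3BP1. All 20 cytosolic members had a CAPRIN window (176 windows), against 11 of 16 mitochondrial members (38 windows) and 2 of 3 scaffold genes (3 windows). G3BP1 listed 12 of 20 cytosolic members (68 windows), 1 of 16 mitochondrial members (4 windows, all in IARS2) and none of the 3 scaffold genes. This G3BP1 difference rests on the set of up to 3 replicates. In the set of up to 2 only LARS1 (cytosolic) and IARS2 (mitochondrial) were listed. Longer or more abundant transcripts can hold more listed windows, and neither transcript length nor abundance was adjusted for here. In bulk libraries such as these, fewer cells with a transcript and less of it per cell cannot be told apart. Of the 11 genes of the multi-synthetase complex, CAPRIN listed 10 and G3BP1 listed 5. Of these 5 only LARS1 was also in the G3BP1 set of up to 2 replicates. Among all 9792 genes CAPRIN listed 44.6% and G3BP1 12.6%.

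**Figure D1:**
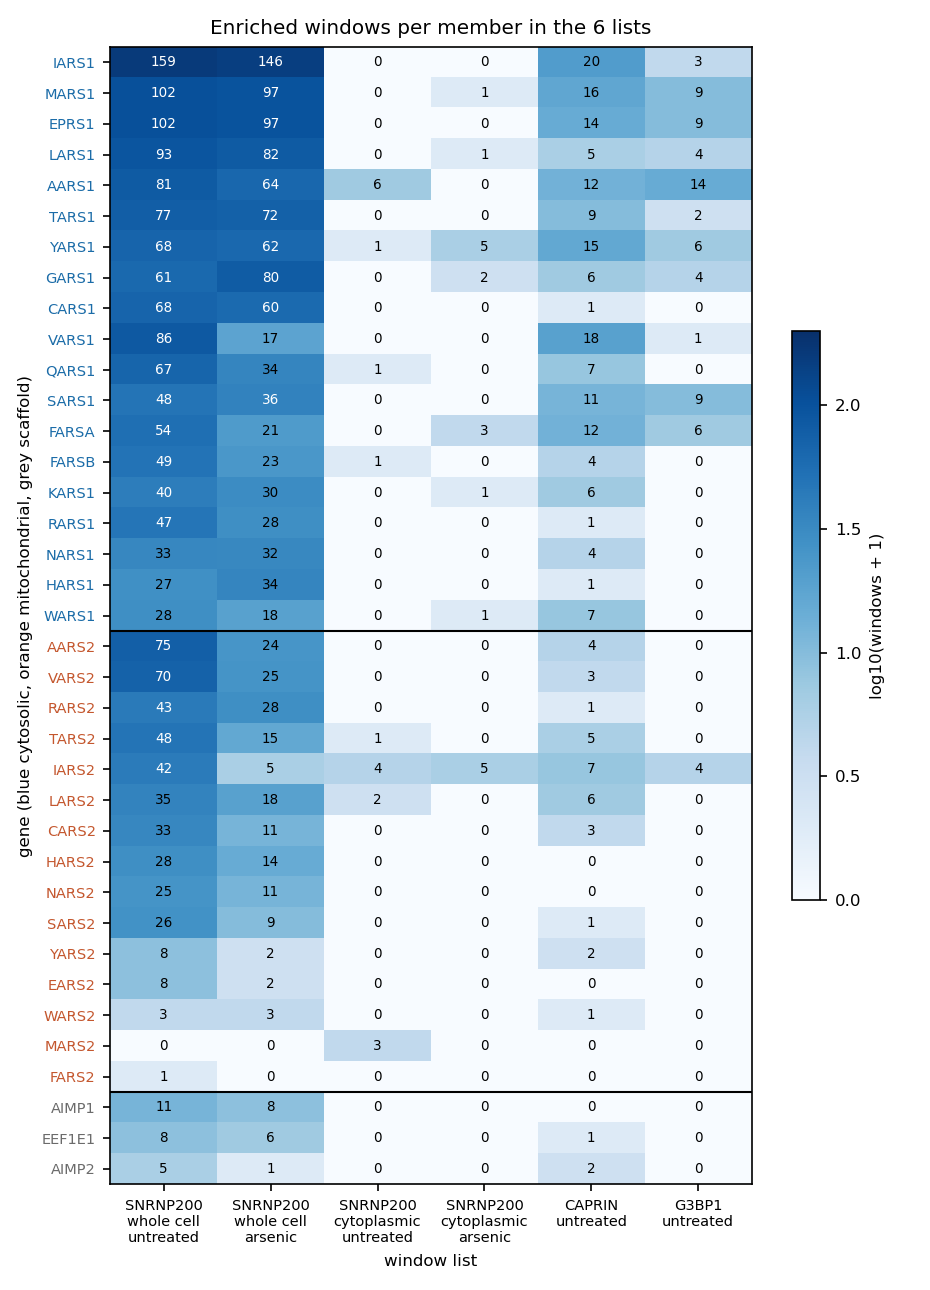
Number of enriched windows per gene (rows) in each of the 6 lists (columns), with shade giving log10(windows + 1) and lines parting cytosolic, mitochondrial and scaffold genes. IARS1 holds the highest count, 159 windows in untreated whole cells, and IARS2 is the mitochondrial gene with windows in all 6 lists.

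Genes that work beside the synthetases were counted from 2 lists. Of 20 partners of tRNA charging, such as tRNA exporters, editing enzymes and elongation factors, 17 and 15 were listed in whole cells without and with arsenic, 0 and 4 in the cytoplasm, 8 by CAPRIN and 3 by G3BP1. XPOT, which exports tRNAs from the nucleus, had 90 whole cell windows without and 91 with arsenic, and 1 CAPRIN window. TUFM, the mitochondrial elongation factor that carries charged tRNAs to the ribosome, had 16 CAPRIN and 8 G3BP1 windows. Of 20 genes of the amino acid response, 19 and 19 were listed in whole cells, 9 and 9 in the cytoplasm, 14 by CAPRIN and 10 by G3BP1. Among these PHGDH, which opens serine synthesis, had 24 CAPRIN and 21 G3BP1 windows. Of all 9792 genes, 92.4% and 83.8% were listed in whole cells, 18.6% and 25.2% in the cytoplasm, 44.6% by CAPRIN and 12.6% by G3BP1. In the same order the partners stood at 85%, 75%, 0%, 20%, 40% and 15%. The amino acid response genes stood at 95%, 95%, 45%, 45%, 70% and 50%.

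The reads behind these windows were few. A member window held a median of 34 IP and 4 input reads in untreated whole cells and 39 and 5 with arsenic, summed over replicates. The medians were 22 and 1 in untreated cytoplasm, 32 and 11 in cytoplasm with arsenic, 17 and 2 for CAPRIN, and 18 and 9 for G3BP1. Replicates of a member window lay a median of 0.79 log2 units apart in untreated whole cells, 0.88 with arsenic, 1.02 and 1.95 in the cytoplasm, 0.44 for CAPRIN and 0.46 for G3BP1. A log2 enrichment of 0 stood for 8.01 input reads per IP read in cytoplasm with arsenic and for 0.94 to 2.79 in the other lists, so levels are best read within a list.

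Introns next to splice sites and coding exons made up most SNRNP200 windows of the family in whole cells. Without arsenic 39.6% of 1796 member windows (exact 95% binomial interval 37.3 to 41.9) lay in introns at a splice site, against 35.7% of all windows, and 37.1% lay in coding sequence, against 38.7%. The cytosolic share at splice sites was 38.3% (505 of 1317) and the mitochondrial share was 44.0% (200 of 455). The 24 windows of the scaffold genes held 6 at splice sites and 12 in coding sequence. Windows of a gene share their transcript, so the intervals cover counting error only and no test was made.

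IARS1, the isoleucine enzyme of the cytosol, had the most windows of the family in untreated whole cells with 159, of which 60 lay in introns at splice sites and 43 in coding sequence. EPRS1, which charges both glutamate and proline tRNAs, and MARS1, the methionine enzyme, followed with 102 each. LARS1, the leucine enzyme, had 93 windows and VARS1, the valine enzyme, had 86. All of these except VARS1 belong to the multi-synthetase complex. Counts of windows are not per length, so their order is an order of listed windows and not of binding.

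The strongest single windows of the family without arsenic were mostly short introns that touch both splice sites. The intron of VARS2, the mitochondrial valine enzyme, at chr6:30921142-30921229 (hg38, + strand) had 98 IP and 0 input reads. Its replicate values were log2 6.60 and 7.06, and its mean of 6.83 ranked 47 among 182066 windows. Next came a LARS1 intron at chr5:146153811-146153892 (− strand) with 85 IP and 2 input reads, at 5.53 and 7.28. The intron of QARS1, the glutamine enzyme, at chr3:49100092-49100189 (− strand) had 210 IP and 2 input reads, at 6.0 and 6.8. LARS2, the mitochondrial leucine enzyme, reached 6.19 and 6.56 (52 IP and 0 input reads) at a 3′ splice site, chr3:45517803-45517902 (+ strand). FARSA, the catalytic subunit for phenylalanine, reached 5.54 and 6.93 (107 IP and 0 input reads) in a short intron, chr19:12924539-12924626 (− strand). In all of these windows both replicates lay above log2 5.

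With arsenic the strongest windows lay in other genes. RARS2, the mitochondrial arginine enzyme, led with a coding window at chr6:87555408-87555505 (− strand), where 116 IP and 2 input reads gave 5.95 and 7.09. TARS1, the threonine enzyme, had 55 IP and 0 input reads in a short intron at chr5:33462007-33462098 (+ strand), at 6.0 and 6.94. A 3′ splice site window of IARS1 at chr9:92247552-92247651 (− strand) had 51 IP and 0 input reads, at 6.07 and 6.49. CARS1, the cysteine enzyme, had 87 IP reads and 1 input read in coding sequence at chr11:3018408-3018459 (− strand), at 5.95 and 6.5. MARS1 had 220 IP and 8 input reads in a short intron at chr12:57514854-57514951 (+ strand), where the replicates were 4.80 and 7.56. The MARS1 replicates were thus further apart than those of the other 4 genes.

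The ratio of windows with arsenic to windows without it was higher in cytosolic than in mitochondrial members, while the full list went from 182066 to 117690 windows. Cytosolic members went from 1317 to 1042 windows, a ratio of 0.79, and mitochondrial members from 455 to 168, a ratio of 0.37. Over all genes the ratio was 0.65. Among genes with at least 20 windows over both lists, the median ratio was 0.84 for 20 cytosolic members (range 0.20 to 1.31), 0.35 for 10 mitochondrial members (range 0.12 to 0.65) and 0.67 for 4427 genes, whose quartiles were 0.49 and 0.85. Ratios above the median of all genes were found in 13 of 20 cytosolic and 0 of 10 mitochondrial members, against 48.9% of all genes. More windows with arsenic than without were found in 2 of 20 cytosolic and 0 of 10 mitochondrial members, against 9.74% of all genes. These ratios compare 2 lists and were not tested over replicates. Windows of mitochondrial members held fewer reads. A shared window with at least 20 IP and 10 input reads in each list was found in 14 of 20 cytosolic members. Such a window was found in 1 of the 14 mitochondrial members with a shared window. The part of read depth in the difference between cytosolic and mitochondrial members was not tested. When both lists were trimmed to the same length, a setting chosen after seeing the data, the cytosolic ratio became 1.05 and the mitochondrial ratio 0.58, so the direction of the cytosolic count rested on the length of the lists.

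GARS1, the glycine enzyme, and HARS1, the histidine enzyme, were the 2 cytosolic members with more windows, at 61 to 80 and 27 to 34. NARS1 (asparagine) went from 33 to 32 windows, EPRS1 and MARS1 each from 102 to 97, TARS1 from 77 to 72, IARS1 from 159 to 146, YARS1 (tyrosine) from 68 to 62, CARS1 from 68 to 60 and LARS1 from 93 to 82. Those below the median ratio of all genes included WARS1 (tryptophan, 28 to 18), RARS1 (arginine, 47 to 28), QARS1 (67 to 34), both phenylalanine subunits FARSB (49 to 23) and FARSA (54 to 21), and VARS1 (86 to 17). KARS1 (lysine, 40 to 30), SARS1 (serine, 48 to 36) and AARS1 (alanine, 81 to 64) lay between. Genes of the multi-synthetase complex lay on both sides of that median, with EPRS1 and MARS1 above it and RARS1 and QARS1 below.

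Mitochondrial members listed in whole cells had fewer windows with arsenic in every case but WARS2 (tryptophan), which had 3 in each list. RARS2 had the highest ratio among those with enough windows, from 43 to 28. AARS2 (alanine) went from 75 to 24 windows, VARS2 from 70 to 25, TARS2 (threonine) from 48 to 15 and LARS2 from 35 to 18. IARS2 (isoleucine) had the lowest ratio of the family among genes with at least 20 windows, 42 to 5, which stood at percentile 0.82 of all such genes. FARS2 (phenylalanine) had 1 window without arsenic, at its start codon (chr6:5368571-5368670, + strand, 13 IP reads and 1 input read, 2.33 and 4.22), and none with it. Among all genes in either list 11.6% were found only without arsenic and 2.45% only with it, and no member was found only with it. The scaffold genes went from 11 to 8 (AIMP1), from 8 to 6 (EEF1E1) and from 5 to 1 (AIMP2).

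**Figure D2:**
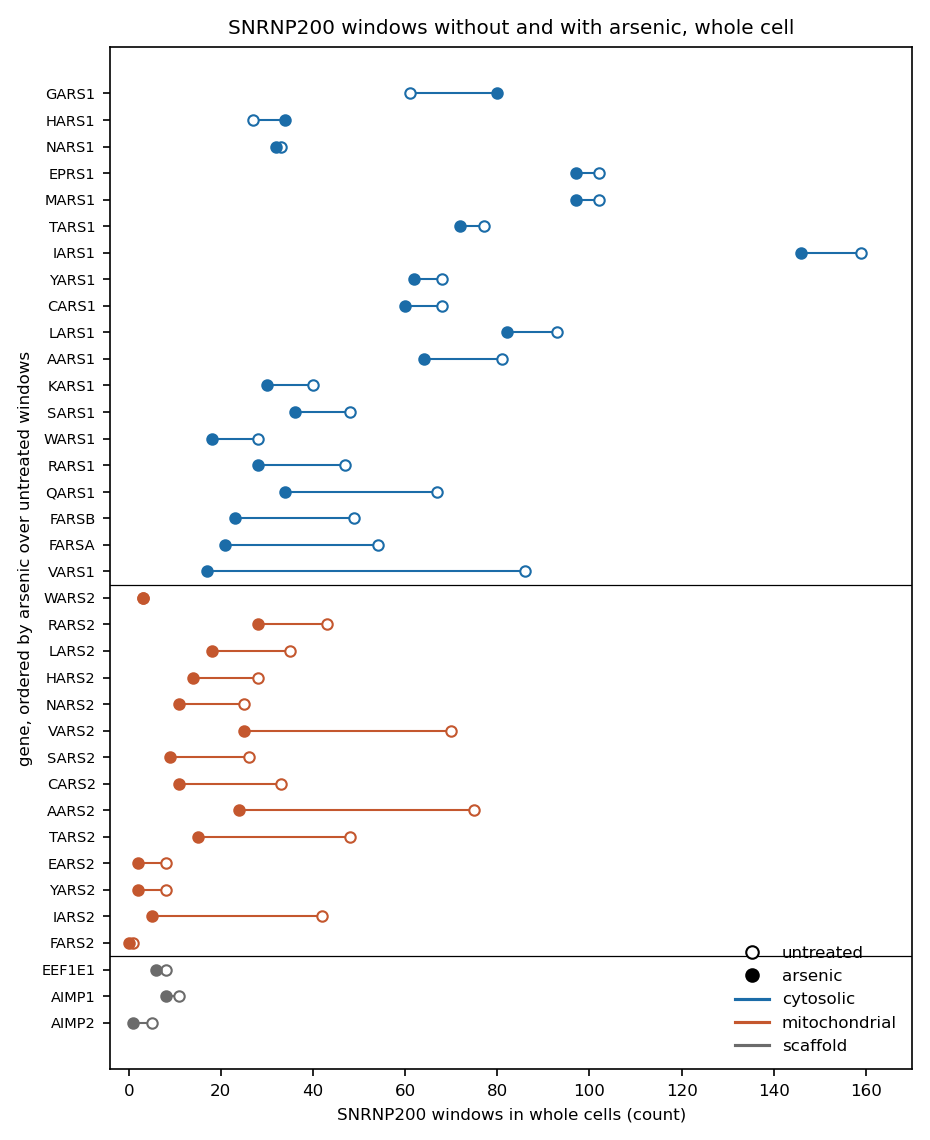
Number of SNRNP200 windows per gene in untreated (open) and arsenic-treated (filled) whole cells, in order of the ratio within cytosolic, mitochondrial and scaffold genes. The filled point lies right of the open point in GARS1 and HARS1 only, and all mitochondrial genes shown except WARS2 move left.

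Splice site windows showed the same order as the totals. In cytosolic members they went from 505 to 451 (ratio 0.89) and in mitochondrial members from 200 to 78 (ratio 0.39), against 0.74 over all genes. Coding windows went from 481 to 362 in cytosolic members (0.75) and from 173 to 69 in mitochondrial members (0.40), against 0.60. The windows listed in both conditions numbered 1028 in the family, which is 83.9% of its windows with arsenic and 57.2% of those without, against 77.4% and 50.1% for all genes. Of the 8 charging partners with enough windows the median ratio was 0.79, and of the 15 such amino acid response genes it was 1.12, with more windows under arsenic in 8 of them. In that last list PHGDH went from 86 to 78 windows and SLC3A2 from 75 to 65. SESN2, an inhibitor of the growth kinase mTORC1, went from 50 to 66 windows.

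Reads in shared windows separate the change of input from that of IP. In the 58 shared windows of GARS1 the input went from 450 to 605 reads and the IP from 2433 to 4703. Relative to the totals of all shared windows, these are log2 changes of 0.64 in input and 1.06 in IP. IARS1 had relative changes of 0.38 in input and 0.55 in IP over 128 shared windows, TARS1 0.49 and 0.62 over 64, and CARS1 0.64 and 0.69 over 47. VARS1 moved the other way, at -0.42 in input and -0.57 in IP over 16 shared windows, and FARSA stood at -0.73 and -0.88 over 19. Input and IP changes had the same sign in these genes but not in every member. LARS1 stood at -0.16 in input and 0.03 in IP over 70 shared windows, and HARS2 at 0.15 and -0.22 over 10. The part of RNA abundance in the window counts was not tested. The median relative input change was -0.05 over the 20 cytosolic members and -0.09 over the 10 mitochondrial members with enough windows. It was 0.59 over the 15 amino acid response genes and -0.10 over all 4427 genes with enough windows.

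Several cytosolic synthetase genes carry a known promoter element of the amino acid response, and it was looked for because several of their window ratios lay together near the upper end of the family. The motif TGATGNAA is the composite element read by ATF4 with a C/EBP partner. It was chosen after the window counts had been seen and was searched on both strands of RefSeq promoters (GRCh38.p14, 250 bases before to 50 after the start). It was found in 7 of 16 cytosolic members with a promoter sequence (43.8%), 1 of 13 mitochondrial members, 0 of 3 scaffold genes, 0 of 15 charging partners and 4 of 14 amino acid response genes (28.6%). The share was 4.46% among all 27305 genes with a promoter and 2.49% among the 7603 of them with a window in any list. The 8 stretches in the family follow, on the strand of the gene, with the motif or its reverse complement in capitals.
AARS1, chr16:70289675-70289704 (−): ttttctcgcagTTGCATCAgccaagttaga
CARS1, chr11:3057407-3057436 (−): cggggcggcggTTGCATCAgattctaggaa
GARS1, chr7:30594834-30594863 (+): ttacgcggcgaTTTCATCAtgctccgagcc
IARS1, chr9:92293692-92293721 (−): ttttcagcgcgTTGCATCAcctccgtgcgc
MARS1, chr12:57488053-57488082 (+): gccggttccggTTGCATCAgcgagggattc
NARS1, chr18:57621804-57621833 (−): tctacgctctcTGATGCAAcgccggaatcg
TARS1, chr5:33440956-33440985 (+): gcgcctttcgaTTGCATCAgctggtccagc
YARS2, chr12:32756076-32756105 (−): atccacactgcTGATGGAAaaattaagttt

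The 7 cytosolic members with the motif had window ratios of 0.79 to 1.31 (median 0.94), and the 9 without it had ratios of 0.39 to 1.26 (median 0.64). AARS1 had the lowest ratio of those with it and HARS1 the highest of those without, so the ranges overlapped. Over all genes with enough windows the median ratio was 0.76 for 83 with the motif and 0.67 for 3553 without. The 83 include the 7 members and amino acid response genes such as ASNS. As the motif was chosen after the window counts were seen, both splits are descriptions and no test. YARS2, the mitochondrial tyrosine enzyme, went from 8 to 2 windows. The match describes letters of the promoter, and binding of ATF4 was not measured.

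The enrichment of IP over input in a matched window was tested apart from the number of windows. For each gene the shared window with the highest summed IP count was compared with limma between 2 and 2 replicate values, with p adjusted over all genes. No gene of 7531 passed at adjusted p under 0.05 (0%), with 288 at unadjusted p under 0.05, and none passed with a variance trend either (306 unadjusted). Of the 37 members tested, 3 had an unadjusted p under 0.05. An exact permutation test of 2 against 2 samples cannot go below 0.333.

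RARS2 had the largest difference above 0 among the members. Its coding window at chr6:87555408-87555505 stood at log2 5.95 and 7.09 with arsenic and at 4.09 and 4.72 without, a difference of 2.11 ± 0.87 (SE, limma adjusted p = 0.99). TARS1 followed at a 5′ splice site (chr5:33441144-33441243), with 4.25 and 5.50 against 2.38 and 3.54, a difference of 1.91 ± 0.90 (adjusted p = 0.99). The stop codon window of EEF1E1 had 4.41 and 7.09 against 3.65 and 4.43 (1.71 ± 0.99, adjusted p = 0.99). In RARS2 and TARS1 the replicates of the 2 conditions did not overlap, and in EEF1E1 they did. The RARS2 difference was -0.32 when all its shared windows were averaged, and the TARS1 difference was -0.087 when windows with few reads were left out, so neither direction held across settings.

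KARS1 lay lowest. Its coding window at chr16:75635680-75635742 stood at 2.99 and 3.37 with arsenic and at 4.71 and 6.62 without, a difference of -2.49 ± 0.91 (limma adjusted p = 0.99). The short intron of VARS2 that led the untreated list had 4.79 and 5.45 with arsenic against 6.60 and 7.06 (-1.70 ± 0.85, adjusted p = 0.99). In both genes the replicates did not overlap. Over all 37 members, 9 were higher and 9 lower with arsenic without overlap of the replicates, against 16.9% and 15.1% of all genes tested. The median difference was 0.30 for the members and 0.09 for all genes. The members' median was -0.028 with the mean of shared windows, -0.066 in the 15 members left by the read minimum and 0.056 over every shared window, so neither its sign nor its size held across settings.

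**Figure D3:**
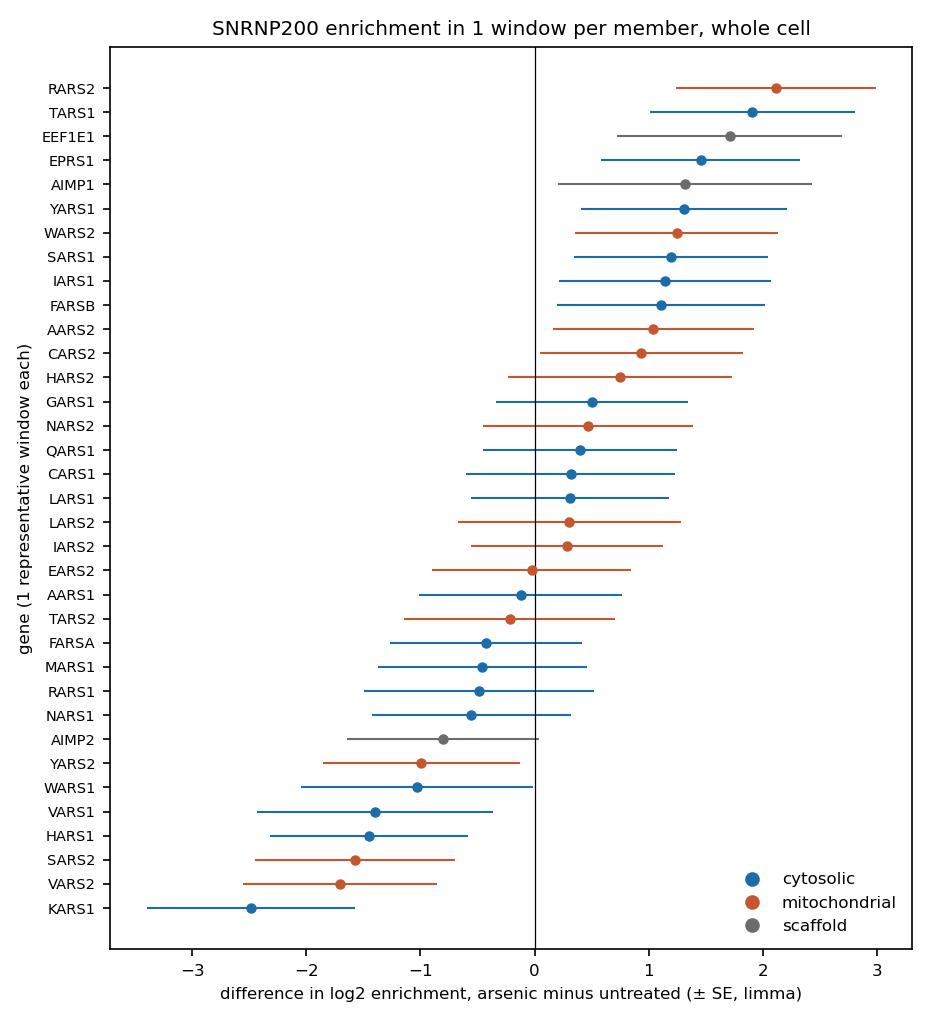
Difference in log2 enrichment between arsenic-treated and untreated whole cells in 1 representative window for each gene shown, with the limma standard error from 2 against 2 replicates. The points run from -2.49 in KARS1 to 2.11 in RARS2, colours are mixed along the order, and none passed the adjusted test.

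Cytoplasmic SNRNP200 windows lay in mature parts of the transcripts. Without arsenic 12 of 20 member windows were in 3′ UTRs (60%, exact 95% interval 36.1 to 80.9), against 67.6% of all windows, and 7 were in coding sequence. With arsenic 12 of 24 were in 3′ UTRs (50%, interval 29.1 to 70.9), against 45.5%. No member window lay in an intron at a splice site in either list, where such windows were 0.0717% and 0.133% of all. Of the member windows, 4 of 20 without and 4 of 24 with arsenic were also in the whole cell list of the same condition.

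In untreated cytoplasm AARS1 led with 6 windows, and 4 lay in the 3′ UTR. The most enriched, chr16:70252536-70252627 (− strand), had 27 IP reads and 1 input read, at log2 3.10 and 4.68. IARS2 followed with 4 windows, among them a coding window with 25 IP and 0 input reads at 4.04 and 4.73. MARS2, the mitochondrial methionine enzyme, whose gene is known to lack introns, had 3 coding windows and no window in any other list. Its replicate values were 4.10 and 5.03 in the strongest, chr2:197706791-197706889 (+ strand), with 21 IP and 0 input reads. A gene listed in untreated cytoplasm but not in untreated whole cells was uncommon, at 1.17% of all genes in either list.

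LARS2 had 2 windows in untreated cytoplasm, the stronger in its 3′ UTR at chr3:45547629-45547727 (+ strand), with 27 IP and 0 input reads at 4.61 and 4.89. TARS2 had 1 window in the 3′ UTR (19 IP and 0 input reads, 3.94 and 4.55), FARSB 1 in the 3′ UTR (15 IP reads and 1 input read, 2.53 and 4.17) and YARS1 1 in the 3′ UTR (23 IP and 3 input reads, 2.40 and 2.59). QARS1 had 1 window, in its 5′ UTR. It is shown because the same 27 bases were listed in 3 lists, with capitals from the RefSeq start onward.
QARS1, chr3:49104734-49104760 (−): tttCTTTTAGTTTCCGGTGTCTCTGCA

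In untreated cytoplasm the QARS1 window had 29 IP and 2 input reads (3.29 and 4.26), in untreated whole cells 22 and 8 (2.26 and 2.64), and in the CAPRIN list 8 and 2 (2.92 and 3.21).

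With arsenic the cytoplasmic list held other members. IARS2 and YARS1 were among the members in both cytoplasmic lists. Another 7 members, among them FARSA, GARS1, KARS1, LARS1, MARS1 and WARS1, were listed with arsenic only, and 6 (AARS1, FARSB, LARS2, MARS2, QARS1 and TARS2) without it only. Of all genes in either list, 42.9% were found with arsenic only and 22.3% without only. Cytosolic members went from 5 to 8 of 20 and mitochondrial members from 4 to 2 of 16, counts of lists with no test.

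IARS2 and YARS1 had 5 windows each in cytoplasm with arsenic, and IARS2 the strongest. Its 3′ UTR window at chr1:220147798-220147878 (+ strand) had 95 IP and 15 input reads, at 5.15 and 9.07, and its mean of 7.11 ranked 11 among 6773 windows. The adjoining upstream window stood at 4.10 and 8.36 with 48 IP and 8 input reads. YARS1 reached 3.80 and 8.13 in its 3′ UTR at chr1:32775610-32775701 (− strand), with 47 IP and 18 input reads. In all 3 windows the replicates lay more than 3 log2 units apart.

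Among members found with arsenic only, FARSA had 3 windows around its stop codon and 3′ UTR, the strongest with 50 IP and 5 input reads at 3.13 and 6.96. GARS1 had 2 neighbouring windows at its start codon, one of 70 IP and 22 input reads (3.09 and 3.36) and one of 72 and 11 (3.32 and 7.27). KARS1 (24 IP and 6 input reads, 3.73 and 6.30) and MARS1 (37 and 20, 2.85 and 5.99) had 1 coding window each. LARS1 (20 and 20, 3.04 and 4.70) and WARS1 (14 and 12, 3.63 and 4.27) had 1 window each in the 3′ UTR.

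The matched windows of the 2 cytoplasmic lists gave no call. Limma passed 0 of 686 genes (0%) at adjusted p under 0.05, with 206 at unadjusted p under 0.05, while 115 passed with a variance trend. IARS2 had 5.15 and 9.07 with arsenic against 2.3 and 3.76 without at chr1:220147798-220147878, a difference of 4.08 ± 1.39 (SE, adjusted p = 0.13). YARS1 had 2.96 and 3.70 against 2.40 and 2.59 (0.84 ± 1.12, adjusted p = 0.54). The median over all 686 genes was 2.02, so the whole list stood higher with arsenic, and 71.3% of genes were higher without overlap, as were IARS2 and YARS1. After that median was removed, IARS2 stood at 2.06 and YARS1 at -1.18.

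Between fractions few member windows could be matched. Without arsenic 3 of the 405 genes tested were members and none of the 405 passed limma (0%), with 66 at unadjusted p under 0.05 and none with a variance trend. The AARS1 3′ UTR window had 3.10 and 4.68 in cytoplasm against 2.16 and 2.3 in whole cells (1.66 ± 0.66, adjusted p = 0.28). The QARS1 5′ UTR window differed by 1.32 ± 0.58 (adjusted p = 0.28), and a YARS1 3′ UTR window by 0.69 ± 0.54 (adjusted p = 0.54). All 3 were higher in cytoplasm without overlap, as were 26.7% of the genes tested. Members listed in untreated whole cells but not in cytoplasm numbered 30, against 80.2% of all genes, and those with most windows were IARS1, MARS1, EPRS1, LARS1, VARS1, TARS1, AARS2 and VARS2.

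With arsenic 4 of the 545 genes matched between fractions were members, and limma again passed none of the 545 (0%), with 97 at unadjusted p under 0.05 and none with a variance trend. KARS1 had 3.73 and 6.30 in cytoplasm against 1.83 and 2.57 in whole cells (2.82 ± 1.02, limma adjusted p = 0.25). GARS1 had 3.09 and 3.36 against 1.83 and 2.02 at its start codon (1.30 ± 0.84, adjusted p = 0.33). YARS1 differed by 0.70 ± 0.88 and MARS1 by -0.48 ± 1.12, and both overlapped. The median of all 545 genes was 1.31, and 58.9% were higher in cytoplasm without overlap, as were KARS1 and GARS1, and 2.2% were lower without overlap, among them no member. With that median removed GARS1 stood at -0.0081 and YARS1 at -0.61. A log2 of 0 stood for 8.01 input reads per IP read in this cytoplasmic list and for 1.40 in the whole cell list. Binding and baseline cannot be told apart in this median either. All 10 members of the cytoplasmic list were also in the whole cell list, while 2.7% of all genes were found in cytoplasm only. The 27 members listed in whole cells only (70.7% of all genes) were led by IARS1, EPRS1, TARS1, AARS1, CARS1, SARS1, QARS1 and HARS1.

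CAPRIN windows of the family lay mainly in coding sequence. Of 217 member windows 139 were coding (64.1%, exact 95% interval 57.3 to 70.4), against 43.5% of all 15831 CAPRIN windows, and 52 were in 3′ UTRs (24%, interval 18.4 to 30.2), against 34.8%. The coding share was 68.2% in cytosolic members (120 of 176) and 44.7% in mitochondrial members (17 of 38). No member window lay in an intron at a splice site.

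IARS1 had the most CAPRIN windows with 20, of which 16 were coding, and its strongest stood at 4.68 and 5.58 with 17 IP and 0 input reads. VARS1 had 18 windows, 17 of them coding, with 5.84 and 6.07 in a window of 56 IP and 0 input reads. MARS1 had 16, and its strongest coding window (chr12:57489267-57489345, + strand) had 50 IP and 2 input reads at 5.39 and 5.77. YARS1 had 15, with 6 in its 3′ UTR, where chr1:32775610-32775701 reached 6.51 and 6.91 with 46 IP and 0 input reads. FARSA had 12 and reached 6.94 and 7.55 in its 3′ UTR at chr19:12922568-12922657 (− strand), with 94 IP and 0 input reads. AARS1 also had 12, the strongest at the stop codon with 23 IP and 0 input reads (4.30 and 5.0). In VARS1, MARS1 and YARS1 the replicates of the strongest window lay within 0.4 log2 units.

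EPRS1 had 14 CAPRIN windows, 11 of them coding, and the strongest window of the family. It lay deep in an intron, at chr1:219993698-219993797 (hg38, − strand), with 340 IP and 0 input reads. Its replicates stood at 8.89 and 10.22, and its mean of 9.55 ranked 30 among 15831 windows. The same window was listed in whole cells with arsenic for SNRNP200, with 15 IP and 3 input reads at 2.51 and 2.94. EPRS1 also had 2 windows in the 5′ UTR, and the first 30 bases from its RefSeq start, which begin one of them (19 IP and 0 input reads, mean 4.40), are shown beside those of IARS2, whose 5′ UTR window began at its start in the CAPRIN list (20 and 0, mean 4.33) and in cytoplasm with arsenic (30 and 6, mean 3.79).
EPRS1, chr1:220046476-220046505 (−): gaaggctgcggcggcgtcgggtacgcgcac
IARS2, chr1:220094132-220094161 (+): actcggctccccttggtttcctggggtcct

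SARS1 had 11 CAPRIN windows and reached 6.24 and 6.32 in its 3′ UTR (39 IP and 0 input reads). TARS1 had 9, the strongest in the 3′ UTR at 5.69 and 6.58 (30 IP and 0 input reads). IARS2 and QARS1 had 7 each. Their strongest windows were both in the 3′ UTR, at 5.80 and 6.41 for IARS2 (66 IP and 2 input reads) and 5.15 and 5.90 for QARS1 (22 and 0). WARS1 also had 7 windows, and GARS1, KARS1 and LARS2 had 6 each. LARS1 and TARS2 had 5 each, and AARS2, FARSB and NARS1 had 4 each. Among the scaffold genes AIMP2 had 2 windows and EEF1E1 had 1.

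G3BP1 windows of the family were coding to a larger share still. Of 72 member windows 60 were coding (83.3%, exact 95% interval 72.7 to 91.1), against 49% of all 3023 G3BP1 windows, and 4 were in 3′ UTRs (5.56%), against 21.6%. The deposited G3BP1 list has 2 sets, of windows called in up to 2 and up to 3 replicates, although the labels give 2 replicates. The set of up to 3 listed all 13 members (7.4% of all genes), and the set of up to 2 listed IARS2 and LARS1 only (8.05% of all genes). The count of 13 members thus rests on the set of up to 3. The shares by feature above pool both sets, for members and for all windows, and were not computed by set. A difference between the sets therefore cannot be told apart from one of the family. Values below are the lowest and highest replicate.

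AARS1 had the most G3BP1 windows with 14, of which 11 were coding, and its strongest stood at 4.43 and 4.62 with 29 IP and 3 input reads (chr16:70268325-70268379, − strand). EPRS1, MARS1 and SARS1 had 9 each. The 9 of EPRS1 were all coding, at most 2.92 and 5.36 with 17 IP and 5 input reads. MARS1 had 9 coding windows, the strongest by mean at 2.87 and 4.02 with 39 and 10 reads. SARS1, the serine enzyme, had 8 coding windows and 1 at the start codon. In SARS1 3 adjoining windows at chr1:109235210-109235431 (+ strand) held up to 62 IP reads, and the window at chr1:109236391-109236469 reached 3.02 and 5.04. In these 4 genes coding windows were thus the most frequent kind.

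FARSA and YARS1 had 6 G3BP1 windows each, with 4 coding in FARSA and 5 in YARS1. FARSA reached 3.28 and 3.96 (17 IP and 2 input reads) and YARS1 1.91 and 3.15 in its deepest window (42 and 26). GARS1 had 4, all coding, at up to 2.59 and 3.59, and LARS1 had 4, of which 3 were coding. IARS1 had 3, led by a coding window at 3.98 and 4.66 (20 IP and 3 input reads), and TARS1 had 2. VARS1 had 1 window, at 2.71 and 3.24 (12 and 4).

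IARS2 was the single mitochondrial member in the G3BP1 list, with 4 windows. The strongest lay deep in an intron at chr1:220119059-220119157 (+ strand). RefSeq places the long noncoding RNA gene LOC124904515 over 55 of its 99 bases, on a strand that was not compared. The window had 108 IP and 0 input reads at 8.18 and 8.30 in the set of up to 2 replicates. In the other set it had 69 IP and 4 input reads at 4.83 and 7.03. Its mean of 8.24 ranked 35 among 3242 entries. The next intron window had 15 IP reads and 1 input read (3.65 and 5.53). The other IARS2 windows were a coding window with 10 IP and 3 input reads (2.54 and 3.83) and a 3′ UTR window with 14 and 4 (3.50 and 3.63).

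**Figure D4:**
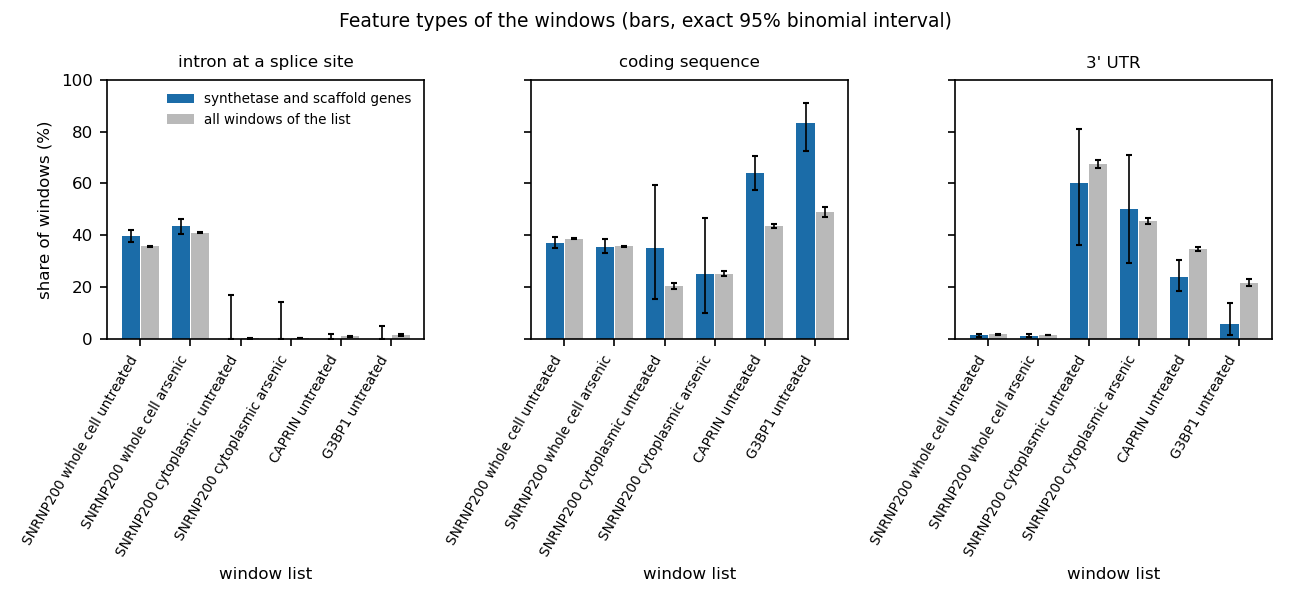
Share of windows (%) in introns at a splice site, coding sequence and 3′ UTR for the synthetase and scaffold genes (blue) and for all windows of each list (grey), with exact 95% binomial intervals. Splice site introns appear in the whole cell lists, 3′ UTRs lead in the cytoplasmic lists, and the blue coding bars reach 64.1% for CAPRIN and 83.3% for G3BP1.

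All 13 members of the G3BP1 list were also in the CAPRIN list, and 20 members were in the CAPRIN list only. Among 4643 genes in either list, 20.5% were in both, 73.5% in CAPRIN only and 6.03% in G3BP1 only. Members found with CAPRIN only that had many windows included QARS1, WARS1, LARS2, KARS1, TARS2, FARSB and NARS1. The lists shared 27 member windows, which is 12.4% of the CAPRIN and 37.5% of the G3BP1 member windows, against 10.7% and 55.8% for all genes. SARS1 had 5 and AARS1 6 of these shared windows. In SARS1, chr1:109236391-109236469 had 35 IP and 2 input reads with CAPRIN (4.66 and 5.05) and 30 and 4 with G3BP1 (3.02 and 5.04).

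The enrichment test between CAPRIN and G3BP1 used the set with up to 2 replicates and had 2 members among 379 genes, of which limma called 113 (29.8%), 41 higher and 72 lower with CAPRIN. IARS2 passed. Its 3′ UTR window at chr1:220147717-220147797 (+ strand) stood at 5.80 and 6.41 with CAPRIN (66 IP and 2 input reads) and at 3.50 and 3.63 with G3BP1 (14 and 4), a difference of 2.54 ± 0.53 (SE, limma adjusted p = 0.012). It was higher with CAPRIN without overlap of the replicates, as were 25.1% of the genes tested. IARS2 had 1 window shared by these 2 lists. The other settings that kept it therefore returned 2.54 again, or 3.02 with the median of all genes removed. They are thus no separate check of the difference. The window was absent when windows had to reach q under 0.05 or to hold at least 20 IP and 10 input reads. No member was left in the latter. LARS1 had 4.43 and 5.04 with CAPRIN and 4.20 and 5.54 with G3BP1 in a deep intron window at chr5:146170430-146170527 (− strand), a difference of -0.14 ± 0.63 (adjusted p = 0.90), or 0.34 with the median of all genes removed. That median was -0.48, and without it limma called 57 genes higher and 39 lower.

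**Figure D5:**
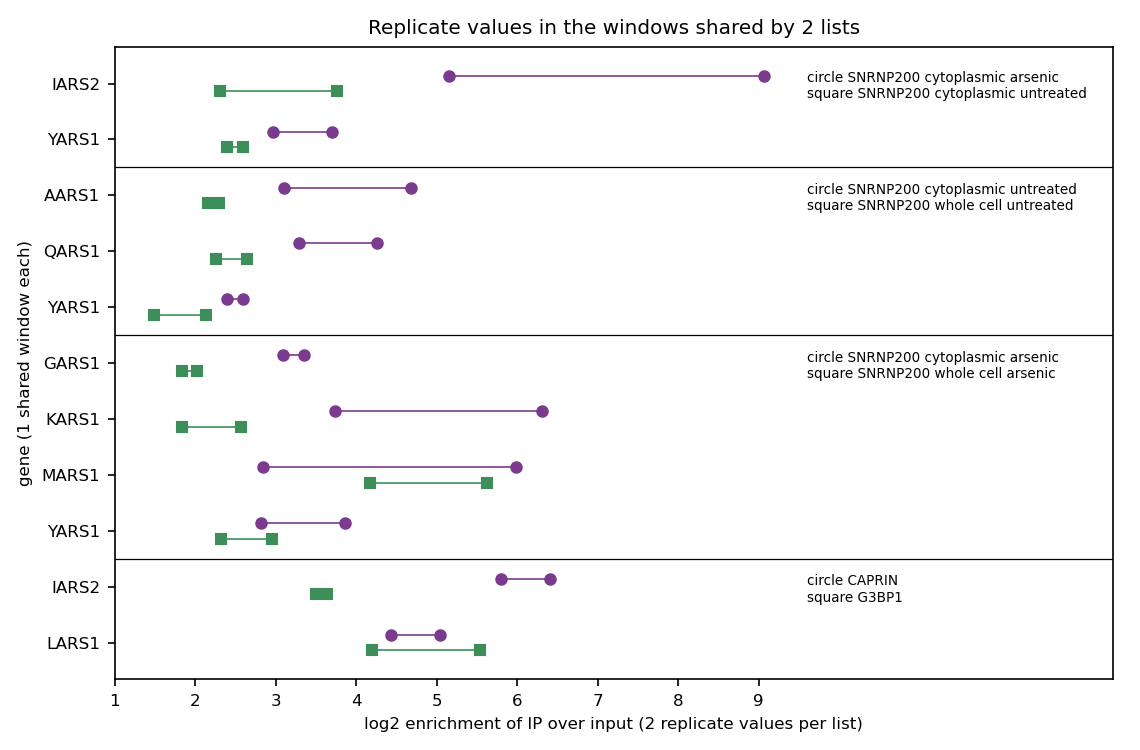
Both replicate values of log2 enrichment in the windows that 2 lists share, for each gene and comparison that could be tested outside the whole cell arsenic comparison. IARS2 shows separate CAPRIN (5.80 and 6.41) and G3BP1 (3.50 and 3.63) values, and its values in cytoplasm with arsenic lie 3.93 apart.

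IARS2 and YARS1 were among the members listed in all 6 experiments, and each had a 3′ UTR window shared by both cytoplasmic lists and the CAPRIN list. The IARS2 3′ UTR window at chr1:220147717-220147797 was the only member window found in all 4 of the cytoplasmic, CAPRIN and G3BP1 lists. It had 2.67 and 3.92 in untreated cytoplasm (15 IP reads and 1 input read), 4.10 and 8.36 with arsenic (48 and 8), 5.80 and 6.41 with CAPRIN and 3.50 and 3.63 with G3BP1. In YARS1 chr1:32775888-32775980 (− strand) was in both cytoplasmic lists and the CAPRIN list, at 3.15 and 4.39 with CAPRIN (29 and 4). In the 4 lists together, 235 member windows were in 1 list, 38 in 2, 6 in 3 and 1 in all 4.

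By contrast AIMP1, EARS2, HARS2 and NARS2 were listed in the 2 whole cell experiments only. AIMP1, the scaffold that binds the arginine enzyme in the complex, had 11 and 8 windows there. HARS2 (histidine) had 28 and 14, NARS2 (asparagine) 25 and 11, and EARS2 (glutamate) 8 and 2. None of these 4 genes had a window in the cytoplasmic, CAPRIN or G3BP1 lists.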

How the data were processed

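Groups were formed from the sample characteristics (antibody target, fraction, arsenic, input or IP). Every sample carries the same treatment protocol, which names arsenic, and the same extract protocol, which gives 1 antibody number for the 3 proteins, so the characteristics were used instead. Per the submitters' processing notes, reads were processed with fastp 0.11.5 and STAR 2.7.6 against hg38. The sources used here do not name the window caller. Each of the authors' 6 lists lacks a header, and its columns were identified from the values. Deposited counts are raw reads per window summed over replicates by the authors, separately for input and IP. Deposited log2 values are the authors' enrichment of IP over input, as lowest, mean and highest replicate. The p-values and q-values that the authors deposited are replicate extremes, and listed windows had q under 0.2. GC content was deposited as a fraction. Library totals were not used here, so depth is given as reads per window and intervals cover counting error only.

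Windows were matched by position and strand, and a window of several genes counted for each. Relative read changes used a pseudocount of 0.5 reads. Differences were tested with limma 3.58.1 under R 4.3.3 (moderated test, both sides, no block, Benjamini-Hochberg over all genes, adjusted p under 0.05) and checked on simulated data. Alternatives were centring, a variance trend, q under 0.05, at least 20 IP and 10 input reads, averages of shared windows, every shared window, windows of 1 gene, at least 2 windows per gene, and lists of equal length. The members and lists were chosen with earlier results of these data known. Named were all members of lists with up to 12, otherwise those with most windows or the strongest window, the 3 highest and lowest differences, every passing member, and the 8 with most windows among those found in 1 list of a pair. Others given by name complete a count or were chosen after their values were seen. Promoters came from RefSeq (GRCh38.p14), which matched 32 of 39 members. Those without a match included AARS2, LARS1, VARS1, VARS2 and YARS1. Some members enter the counts but are not reported here by name.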

Additional observations from a re-analysis of the deposited data

How the results depend on the processing

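No paired analysis was possible because the deposited values are the lowest and highest replicate without replicate numbers, and for the same reason no replicate could be left out. With 2 samples a group, the spread comes mainly from limma's pooling over genes. Under the alternatives, 120 values for counts, shares and ratios were unchanged or stayed within 1.5 times or the interval. Among these are counts of called genes or members that were 0 in both settings, which have no direction. Another 39 moved beyond these limits and 1 reversed. Among single-gene differences 84 kept their direction and 6 reversed, with no limit set on their size. The KARS1 difference between whole cells with and without arsenic, for example, counted as kept at -0.21 with averaged windows, against -2.49. The variance trend and the fit of every shared window leave the difference in a gene's window as it was. Part of the 84 therefore could not have reversed. The cause of the changes below was not tested, beyond the smaller number of windows that stricter settings leave.

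With a variance trend limma called 115 genes between the cytoplasmic lists, and with averaged windows 30. With q under 0.05 it called 21 of 39 genes there, 1 of 25 between fractions with arsenic, and 66 of 233 between CAPRIN and G3BP1, with 0 of 1 member. When windows needed 20 IP and 10 input reads, limma called 40 of 290 genes between the cytoplasmic lists, 18 of 99 between fractions without arsenic, 1 of 326 with it, and 24 of 68 between CAPRIN and G3BP1, where no member was left. Among the genes named with a difference in the report, those that reversed were RARS2 (-0.32, averaged windows) and TARS1 (-0.087, read minimum) in whole cells with arsenic. There, averaged windows put 3 of 14 mitochondrial members above 0, against 8 of 14 in the representative windows, and 16 against 20 of all 37 members. After centring, named genes that reversed were YARS1 (-1.18) between the cytoplasmic lists, GARS1 (-0.0081) and YARS1 (-0.61) between fractions with arsenic, and LARS1 (0.34) between CAPRIN and G3BP1.

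Members listed at q under 0.05 were 0 and 1 in cytoplasm without and with arsenic and 7 for G3BP1. With the read minimum they were 22 in whole cells with arsenic, 0 in untreated cytoplasm, 5 for CAPRIN and 7 for G3BP1. With at least 2 windows they were 4 and 6 in the cytoplasmic lists. Cut to the length of the shorter list of a pair, they were 16 and 19 in whole cells without and with arsenic (against cytoplasm) and 11 for CAPRIN (against G3BP1). The G3BP1 set of up to 2 replicates, an alternative added after seeing the data, listed 2.

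The splice site share of member windows in whole cells was 46.5% without and 55.0% with arsenic at q under 0.05, and 15% and 20.4% with the read minimum. Their coding share was 64.6% and 60% with the read minimum, and 32.9% with arsenic at q under 0.05. At that q the cytoplasmic list with arsenic kept 1 member window, so its shares were 0% coding and 100% 3′ UTR. The CAPRIN 3′ UTR share was 31.3% at q under 0.05 and 12.5% (1 of 8) with the read minimum, and the G3BP1 coding share was 64.3% at q under 0.05. Alternatives for the ratio of whole cell windows with to without arsenic were added after seeing the data. The cytosolic ratio was 0.59 at q under 0.05, 0.89 at splice sites and 1.05 with lists of equal length. The mitochondrial ratio was 0.21 and 0.58 at q under 0.05 and at equal length, below the cytosolic ratio in each setting run.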
